A study of Sus scrofa with 5 samples.

Results

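The nuclei described here are pig sensory neuron nuclei that carried transcripts of GFRA2, the co-receptor through which the growth factor neurturin acts. All but 11 of them also carried LPAR3, a receptor for lysophosphatidic acid, or SLC17A8, the vesicular glutamate transporter VGLUT3. They were chosen by these 3 genes alone: the counts of unique molecular identifiers (UMIs, each standing for 1 captured transcript) of GFRA2, LPAR3 and SLC17A8 had to sum to at least 3 and to at least 3 per 10000 UMIs of the nucleus, with at least 1 UMI of GFRA2. The rule took 192 of 2189 nuclei, or 8.77% (exact Clopper-Pearson 95% interval 7.62 to 10.0%). They are called GFRA2 LPAR3 nuclei. All 1474 remaining nuclei of at least 2000 UMIs served as the comparison and are called other nuclei. Every gene was compared between these sides except the 3 genes of the rule, whose levels are given only as a description.

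Sensory neurons of the dorsal root ganglion send thin unmyelinated C-fibres or thicker myelinated fibres to the skin and deep tissues. Nonpeptidergic C-fibre neurons depend on GDNF-family ligands that signal through GFRA co-receptors and the kinase RET, and they make little substance P. In rodents they include the MRGPRD neurons of the epidermis, which respond to noxious mechanical stimuli and to itch-inducing agents, and the C-fibre low-threshold touch neurons, which express VGLUT3, TAFA4 and, in the mouse, tyrosine hydroxylase. Both kinds arise under the transcription factor RUNX1.

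Ganglia of the thoracic and lumbar levels were taken from 5 pigs, all male and of the Landrace breed. They form a single group, for which the labels name no treatment and no age. Per sample, 80 mg of tissue was lysed in either of a pair of detergents, and the nuclei were cleaned by density gradient or enriched with antibodies against the neuronal protein NeuN on beads or in a sorter. The barcodes fell into 6 libraries, no barcode was shared between libraries (0 repeats), and no label links a library to a pig or a protocol. All nuclei are therefore 1 pooled sample: no test was possible, nuclei are not replicates, and each 95% interval holds the error of counting alone and says nothing of how pigs differ.

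Levels are given as counts per 1000000 UMIs summed over the nuclei of a side (CPM). A gene is called higher or lower when the ratio of CPM was at least 2-fold with an interval that left out 1, among genes whose UMIs on the 2 sides together reached 50. The GFRA2 LPAR3 nuclei held a median of 9004 UMIs (1071 to 309706), against 5696 in the other nuclei, and 7 of them above 50000 UMIs carried 24.2% of their UMIs. By library they numbered 36, 1, 47, 5, 71 and 32 in libraries 1 to 6, which is 5.28, 7.69, 5.84, 6.67, 21.5 and 11.3% of each library's nuclei. The share was thus highest in library 5, and without that library it was 6.51% of all nuclei. Only libraries 1, 3, 5 and 6 held at least 10 of the nuclei, and values by library below are given for these 4 in that order.

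The libraries differed in 3 ways that touch the values below. The median share of UMIs from the mitochondrial genome was 19.8% in the GFRA2 LPAR3 nuclei of library 3 and 4.28% in those of library 1, but 0.0809 and 0.0620% in libraries 5 and 6. In library 3, 906 genes stood at 0 although at least 20 UMIs were expected from the other libraries, against 9 to 37 such genes in each other library, and 894 of the 906 were rows with an Ensembl identifier. They held 15.5% of UMIs in library 5 and 11.2% in library 6, and since library 3 supplied 24.5% of the GFRA2 LPAR3 nuclei but 39.9% of the others, pooled ratios of these genes are shifted. Of the genes named below this concerns FAM163A and JUN. Finally, 81 of the 192 nuclei (42.2%) also met the rule of a comparison set described further on, most often the large-fibre set (42) or the itch set (38). No doublet caller was run, and whether these nuclei are mixtures was not tested.

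The label was set beside marker lists. The 5 markers that the rule did not use are SYNPR, GABRA2, LHFPL3, CACNA1I and PIEZO2. They came with the label and were drawn up with earlier results of these data known, so their levels are a description and no independent check. At least 4 of them were detected in 165 of the 192 nuclei (85.9%) and in 110 of the 1474 others (7.46%), without thinning and at median depths of 9004 and 5696 UMIs. Summed, the 5 markers reached a median of 50.6 UMIs per 10000 in the GFRA2 LPAR3 nuclei and 3.46 in the others. The medians by library were 34.8, 45.6, 58.4 and 74.0, against 3.78, 2.64, 3.82 and 3.92 in the others. The 5 nuclei of library 4 stood apart, with a median of 2.64 per 10000, below the 4.23 of the other nuclei of that library. Conversely, 38 of the other nuclei reached the median of the GFRA2 LPAR3 nuclei, 24 of them in the large-fibre set and 8 with a UMI of GFRA2.

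**Figure D1:**
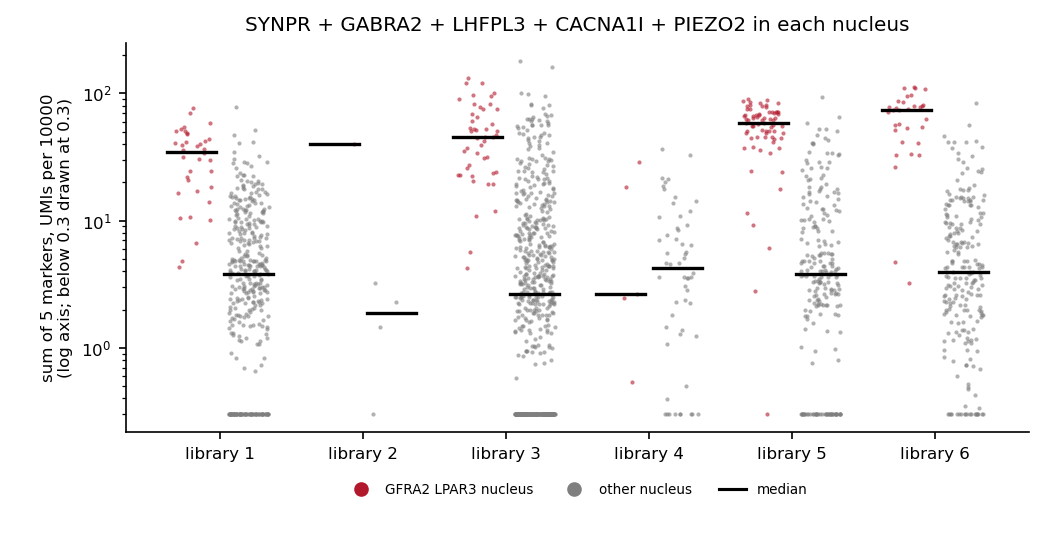
UMIs of SYNPR, GABRA2, LHFPL3, CACNA1I and PIEZO2 per 10000 UMIs of a nucleus (log axis), for each GFRA2 LPAR3 nucleus and each other nucleus in the 6 libraries, with bars at the medians. In libraries 1, 3, 5 and 6 the medians of the GFRA2 LPAR3 nuclei lay between 34.8 and 74.0 and those of the others between 2.64 and 3.92, while in library 4 the order was the reverse.

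Markers of both nonpeptidergic kinds were higher in the GFRA2 LPAR3 nuclei taken as a pool. Whether both kinds of marker occur together in single nuclei was not tested. Of 12 testable genes of the list for MRGPRD-type neurons, 6 were higher (TMC3, TMEM45B, GNA14, PLXNC1, RUNX1 and GRIK1), 1 was lower (ENTPD3) and the median log2 ratio was 1.14. Of 11 genes of the list for C-fibre touch neurons, 7 were higher (CACNA1I, SYNPR, CDH9, PIEZO2, ZNF521, KCND3 and TAFA4), 1 was lower (TH) and the median was 1.67. Over all 13203 genes compared, 3.13% were called higher, 6.95% lower, and the median log2 ratio was -0.07. The markers of the label and these lists share genes, and both were drawn up with earlier results of these data known. MRGPRD itself was not analysed here. TH, the tyrosine hydroxylase of mouse C-fibre touch neurons, had 5 UMIs in the GFRA2 LPAR3 nuclei, or 1.85 CPM against 6.12 CPM.

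The word nonpeptidergic was set beside peptide genes. Of 9 testable genes of the peptidergic list, 8 were lower and none higher (0), with a median log2 ratio of -2.50. TAC1, the precursor of substance P, stood at 207 CPM in the GFRA2 LPAR3 nuclei against 1740.5 CPM, 8.39-fold lower (7.72 to 9.14). By the comparison sets described further on, its log2 ratio was -4.81 against the peptidergic set and -3.81 against the itch set. Against the cold and large-fibre sets it was -0.96 and -0.39, short of 2-fold, so low TAC1 was not particular to these nuclei. CALCA and CALCB were not analysed here. For the word C-fibre the data were less uniform. SCN10A, the tetrodotoxin-resistant sodium channel of nociceptors, stood at 752 CPM, 5.02-fold above the large-fibre set (4.58 to 5.51), and NEFH, the heavy neurofilament typical of myelinated neurons, at 1125 CPM, a ratio of 0.510 to that set (0.490 to 0.532). Within the 4 libraries that ratio of NEFH was 0.409, 0.441, 0.662 and 0.862. NEFH was nevertheless 2.65-fold above the peptidergic set (2.41 to 2.90), and in library 1 it reached 2372 CPM.

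The genes of the rule differed among the nuclei. LPAR3 and SLC17A8 were both detected in 117 nuclei, LPAR3 alone in 36, SLC17A8 alone in 28 and GFRA2 without either in 11. PIEZO2 stood at 2115, 2105 and 1106 CPM in the first 3 of these groups and at 902 CPM in the last, and SYNPR at 1243, 1229, 595 and 536 CPM. The groups with LPAR3 were thus alike in both genes, and those without it lower, though depth and library differed between the groups as well. GFRA2 stood at 455 CPM, with 406, 295, 470 and 568 CPM in the 4 libraries, against 22.5 CPM in the others. LPAR3 reached 189 against 10.9 CPM and SLC17A8 193 against 29.1 CPM. RefSeq places GFRA2 on chromosome 14 of Sscrofa11.1 from 3138174 to 3209687 and again from 5743583 to 5837470, so reads of near-identical copies could have been divided or lost. LPAR3 lies on chromosome 6 (128860210 to 128937769) and SLC17A8 on chromosome 5 (83741641 to 83809472).

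Near the threshold the 5 unused markers changed in steps. Their sum was 3630 CPM in the 20 nuclei just inside with exactly 3 UMIs of the rule genes and 2327 CPM in the 17 just inside with 3 to 4 per 10000, against 5133 CPM over all 192. Just outside, it was 1193 CPM in 45 nuclei with GFRA2 and a sum of 2 UMIs, 1253 CPM in 19 nuclei with GFRA2 and 2 to 3 per 10000, and 1284 CPM in 28 nuclei that lacked only GFRA2. The other nuclei as a whole stood at 814 CPM.

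Among the markers, CACNA1I showed the largest ratio. It encodes the T-type calcium channel Cav3.3, which opens near the resting potential, and lies on chromosome 5 (8593014 to 8702734). Its level was 18.3, 32.5, 71.4 and 97.9 CPM in the 4 libraries, against 0.362, 0.903, 10.0 and 3.89 CPM in the other nuclei. Every library was thus higher on the GFRA2 LPAR3 side, and the pooled ratio was 21.2-fold (14.9 to 31.0). The other testable calcium channel genes were not called in either direction: of 14, CACNA1I was the only 1 higher, none was lower (0), and the median log2 ratio was 0.21. CACNA1H, the related T-type channel of mouse touch neurons, stood at 68.1 against 38.5 CPM, a ratio of 1.77 that was not called and had the opposite sign in library 1.

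SYNPR, which encodes the synaptic vesicle protein synaptoporin, stood at 1018, 1308, 1122 and 1483 CPM in the 4 libraries against 123, 96.0, 156 and 118 CPM in the others. The libraries differed little on either side, and the pooled ratio was 9.78-fold (9.20 to 10.4). With each nucleus drawn down to 2000 UMIs, SYNPR was detected in 78.0% of 191 GFRA2 LPAR3 nuclei (exact interval 71.5 to 83.7%) and in 4.68% of the 171 nuclei of the peptidergic set (2.04 to 9.01%). Without that thinning the shares were 96.9 and 20.5%, at median depths of 9004 and 5884 UMIs.

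PIEZO2 encodes the mechanically gated channel of touch and position sense. Its levels were 885, 1327, 2344 and 2937 CPM against 271, 325, 659 and 472 CPM in the other nuclei. Both sides were lower in libraries 1 and 3 than in 5 and 6, yet within each library the GFRA2 LPAR3 nuclei were higher, and the pooled ratio was 4.57-fold (4.41 to 4.75). The large-fibre set, which holds other touch and position neurons, had 918 CPM, so that the GFRA2 LPAR3 nuclei were 2.12-fold above it (2.03 to 2.21). The large-fibre nuclei lay mostly in libraries 1 and 3, and within libraries 1, 3, 5 and 6 the ratio was 1.99, 1.45, 1.41 and 2.33. At 2000 UMIs PIEZO2 was detected in 85.9% of them and 57.5% of the large-fibre nuclei, against 9.36% of the peptidergic nuclei (unthinned 94.2, 76.5 and 24.0%).

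LHFPL3, a tetraspan gene of the family that includes a partner of the hair cell transduction channel, stood at 613, 1724, 1200.4 and 1889 CPM against 109, 227, 225 and 140 CPM, 8.13-fold higher (7.72 to 8.56). GABRA2, the alpha2 subunit of the GABA-A receptor, stood at 568, 796, 511 and 718 CPM against 130, 160, 105 and 53.5 CPM, 6.17-fold higher (5.75 to 6.62). For both genes the lowest library of the GFRA2 LPAR3 nuclei lay above the highest library of the others. Against the cold set described further on, the ratio of GABRA2 within the 4 libraries was 1.03, 4.14, 4.63 and 9.48.

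**Figure D2:**
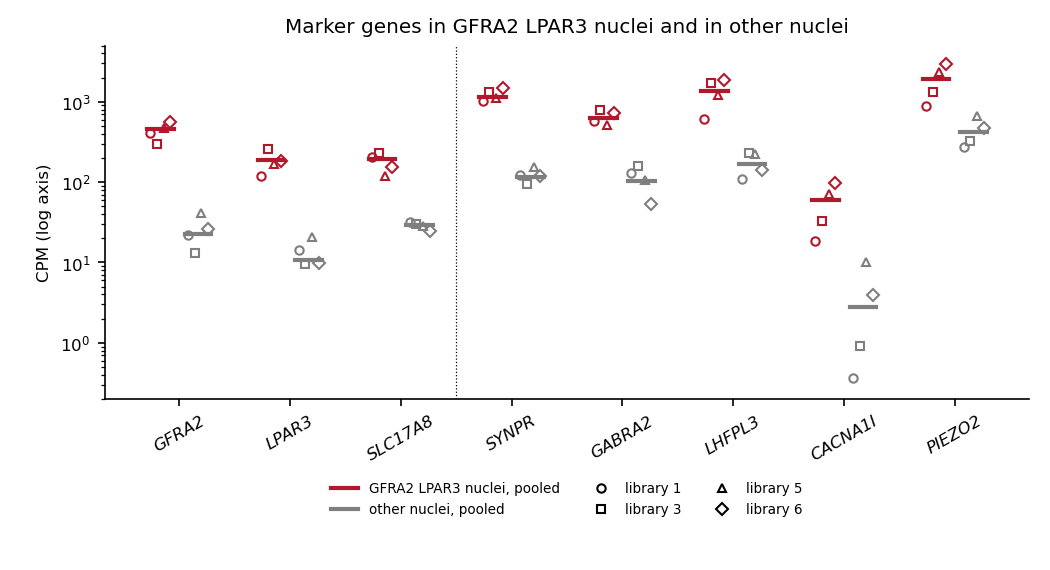
CPM (log axis) of the 8 marker genes in GFRA2 LPAR3 nuclei and other nuclei, pooled (bars) and in libraries 1, 3, 5 and 6 (symbols), with the 3 genes of the rule left of the dotted line. CACNA1I differed most between libraries, from 18.3 to 97.9 CPM in the GFRA2 LPAR3 nuclei, and SYNPR least.

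Over all genes, 413 were higher and 918 lower in the GFRA2 LPAR3 nuclei. Higher in every library with a value were 365 genes (2.76% of those compared) and lower in every such library 733 (5.55%). The split between directions depended on depth and on the nuclei compared, and so did the genes called. With every nucleus drawn down to 2000 UMIs, 353 were higher and 500 lower. Of these, 180 were among the 413 and 283 among the 918. Against the peptidergic, itch and cold sets in place of all others, 539 were higher and 505 lower. Of these, 280 were among the 413 and 386 among the 918.

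The 15 genes with the largest ratios, at least 200 UMIs and the same direction in every library were CACNA1I, LHCGR, LYPD1, SYNPR, EMP3, LHFPL3, TMEM45B, KCNH6, GPX2, CDH9, AMIGO2, TMC3, LXN, FAM163A and KCNG4, with ratios from 21.2 down to 6.59-fold. To describe these genes in named kinds of neuron, 4 comparison sets were formed in the same way from other genes: a peptidergic set by ADCYAP1 and GAL (171 nuclei), an itch set by the cytokine receptors IL31RA and OSMR (212), a cold set by TRPM8 (84) and a large-fibre set by NTRK2, NTRK3 and PVALB (353). All 4 sets are part of the other nuclei, against which the 15 genes had been chosen. High ratios to the sets were thus partly fixed by that choice and are no independent support. All 15 genes were at least 2-fold above each of the 4 sets. Within libraries, 213 of 217 values had that sign, a count that does not ask for 2-fold. The exceptions were EMP3 and KCNH6 against the cold set, TMC3 against the itch set and KCNG4 against the large-fibre set, in 1 library each. In libraries 1, 3, 5 and 6 the ratio of KCNH6 to the cold set was 1.09, 0.810, 3.15 and 3.72. That of TMC3 to the itch set was 0.857, 1.39, 2.25 and 3.23, and that of KCNG4 to the large-fibre set 2.53, 1.21, 0.976 and 5.66. Over the 8373 genes that could be compared with every set, 108 (1.29%) were at least 2-fold above each in the pooled values.

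LHCGR encodes the receptor for luteinizing hormone and choriogonadotropin, best known from the gonads, and lies on chromosome 3 (91964415 to 92023821). It stood at 68.1, 44.1, 77.1 and 97.9 CPM in the 4 libraries against 2.53, 3.61, 7.08 and 3.65 CPM in the others, 18.1-fold higher (13.2 to 24.99). No library of the other nuclei came near, and no set exceeded the 4.46 CPM of the cold set. The GTF2A1L gene overlaps it in RefSeq and was not higher in the same nuclei (39.3 against 55.3 CPM). LYPD1, of a family that modulates nicotinic acetylcholine receptors, stood at 99.5, 81.2, 144 and 124 CPM against 7.96, 7.22, 23.0 and 7.05 CPM, 11.7-fold higher (9.41 to 14.7). Its overlapping neighbour GPR39 was at 7.78 against 8.56 CPM.

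TMC3, of the transmembrane channel-like family, stood at 134, 401, 615 and 667 CPM against 43.4, 64.4, 119 and 73.7 CPM, 7.11-fold higher (6.52 to 7.75). The itch set, at 227 CPM, was nearest to it, and against the peptidergic, itch and cold sets together its log2 ratio of 2.83 became 1.78. CDH9, a cadherin, was at 136, 188, 147 and 188 CPM against 10.9, 24.7, 27.7 and 24.3 CPM, 7.53-fold higher (6.46 to 8.80), with 0.788 CPM in the peptidergic set. TMEM45B was 7.90-fold higher (6.63 to 9.42), or 2.20 in place of 2.98 on the log2 scale against those 3 sets, and GPX2, a glutathione peroxidase, 7.78-fold (6.71 to 9.03).

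Of the 15 genes, 4 rested unevenly on the libraries. LXN, which encodes the carboxypeptidase inhibitor latexin, stood at 1259 CPM in library 1 but 176, 37.1 and 37.9 CPM in libraries 3, 5 and 6, against 180, 21.4, 11.8 and 10.2 CPM in the others. EMP3, a membrane protein gene, stood at 351, 155, 14.3 and 20.9 CPM against 37.3, 11.7, 5.31 and 2.19 CPM. Both genes were high on both sides of library 1, where APOE, a transcript of satellite glia, was also highest (1762 CPM in the GFRA2 LPAR3 nuclei and 1862 CPM in the others). The part of glial RNA in these levels was not tested. The log2 ratio of LXN was 2.78 over all nuclei and 3.50 without library 1. AMIGO2, an adhesion protein gene, had 54.6% of its UMIs in the single nucleus of library 2, and its log2 ratio of 2.88 became 1.93 without that library. FAM163A was at 0 on both sides of library 3, with a log2 ratio of 2.76 over all nuclei and 2.61 without library 3.

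**Figure D3:**
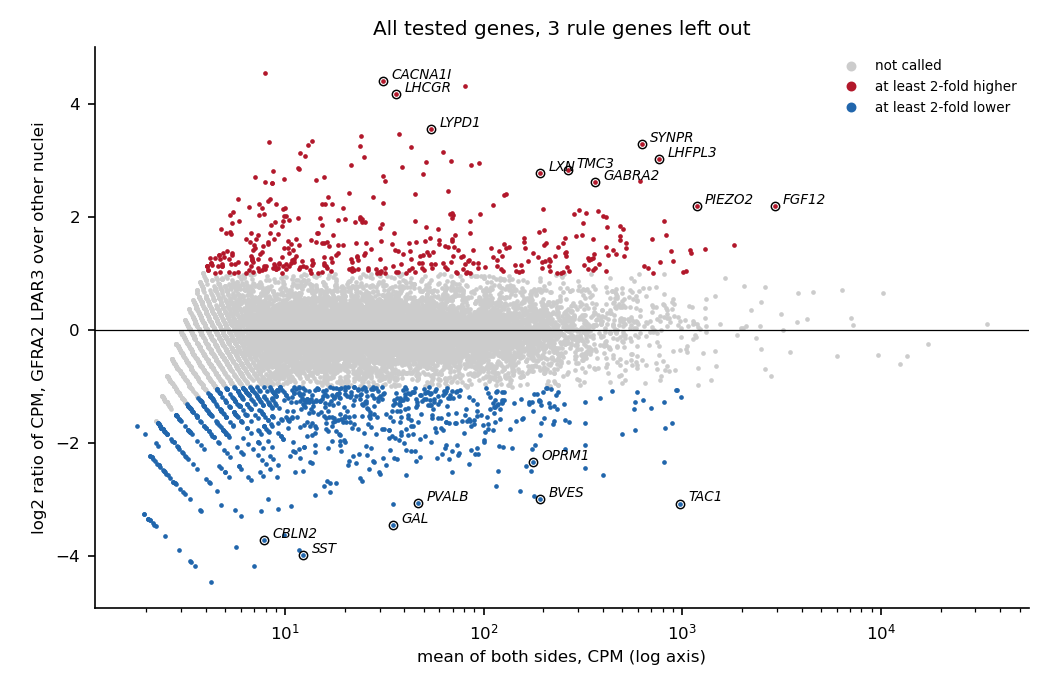
Log2 ratio of CPM, GFRA2 LPAR3 nuclei over other nuclei, against the mean CPM of both sides (log axis) for the 13203 genes compared, with genes called higher in red and lower in blue. CACNA1I and LHCGR lie at the top among rarer transcripts, SYNPR, LHFPL3 and PIEZO2 farther right, and TAC1, also to the right, lies far below 0.

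The 10 genes with the lowest ratios under the same conditions were SST, INSYN2B, CBLN2, LHFPL1, GAL, MYBPC2, CDA, TAC1, PVALB and BVES. Only CDA and BVES were at least 2-fold below each of the 4 sets in the pooled values (2 of 10). Within library 1 the ratio of CDA was 0.962 to the itch set and 0.924 to the large-fibre set. That of BVES to the large-fibre set was 0.612 there. TAC1 stood at 757, 153, 153 and 125 CPM in the 4 libraries against 3826, 2148, 476 and 374 CPM in the others. Each library was lower, although TAC1 was still detected in 67.0% of the nuclei, or in 24.6% at 2000 UMIs against 92.4% of the peptidergic set. GAL, the peptide galanin, was at 5.93 against 64.4 CPM, 10.9-fold lower (6.66 to 19.1).

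SST, the somatostatin gene of itch neurons, had 4 UMIs, at 1.48 against 23.3 CPM, 15.7-fold lower (6.09 to 58.1). The log2 ratio of SST was -3.98, or -5.07 without library 1, -3.14 without library 2 and -1.92 as the mean of within-library values. PVALB, the calcium buffer of position-sensing neurons, was at 10.0 against 83.7 CPM, with 55.0 CPM in the GFRA2 LPAR3 nuclei of library 1 and 1.31 to 4.28 CPM in libraries 3, 5 and 6. The large-fibre set, whose rule uses this gene, held it at 255 CPM. Against the peptidergic, itch and cold sets alone the ratio was reversed, with a log2 value of 0.65 in place of -3.07, and without library 1 it was -3.89. CBLN2, a synaptic organizer, rested on 3 UMIs, and its log2 ratio of -3.71 became -2.71 without library 1 and -4.98 without library 5. For INSYN2B the value of -3.90 was -4.52 without library 5 but -1.19 with nuclei thinned to 2000 UMIs. For LHFPL1, a relative of LHFPL3, the log2 ratio of LHFPL1 was -3.63 over all nuclei, -4.27 without library 4, -4.32 without library 5, -2.96 without library 6 and -2.12 with the mean CPM over nuclei. Weaker values were also reached for GAL (-2.37) and CDA (-2.43) with thinned nuclei, and for TAC1 (-2.33) and MYBPC2 (-2.08) as means of within-library values, from -3.44, -3.07, -3.07 and -3.11.

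**Figure D4:**
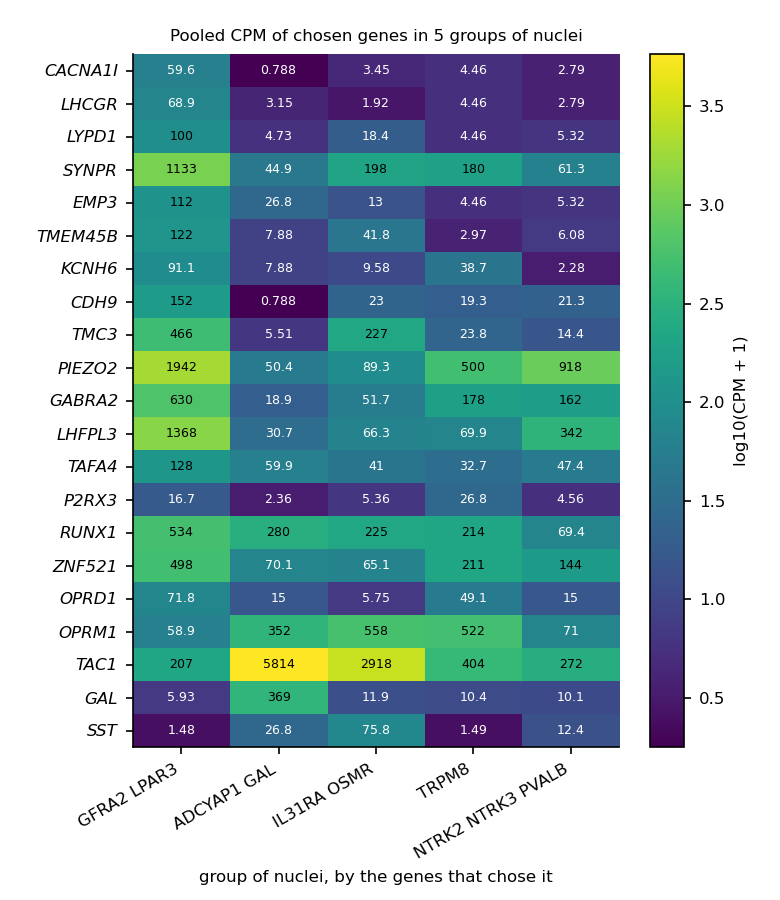
Pooled CPM of chosen genes in the GFRA2 LPAR3 nuclei and the 4 comparison sets, each cell coloured by log10(CPM + 1) and printed with its CPM. CACNA1I, LHCGR and CDH9 are low in all 4 sets, PIEZO2 is next highest in the large-fibre set, TMC3 in the itch set and P2RX3 higher in the cold set. GAL is a gene of the peptidergic set's own rule.

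Genes were then taken by functional list, ion channels first. The counts called in each list below are to be read beside 3.13% higher and 6.95% lower over all genes compared. Of 15 such lists only those of calcium channels, of mechanical, thermal and chemical channels and of neuropeptides (3 of 15) kept the sign of their median in every alternative, so no direction is read from the other medians. FGF12, an intracellular partner of sodium channels, was the only called gene of the 13 tested in the sodium channel list. It was abundant, at 3131, 6039, 5279.9 and 6289 CPM against 662, 1104, 1209 and 1127 CPM, 4.57-fold higher (4.47 to 4.68). SCN11A stood at 354 against 293 CPM and SCN10A at 752 against 466 CPM, and neither was called. Both lay slightly lower in library 1 on the GFRA2 LPAR3 side. In the itch set SCN11A reached 841 CPM.

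Of 54 potassium and HCN channel genes, 9 were higher and 13 lower, with a median log2 ratio of -0.14. KCNH6, of the ERG family, was highest by ratio, at 70.7, 32.5, 116 and 116 CPM against 8.33, 6.62, 18.9 and 16.5 CPM, 7.86-fold (6.42 to 9.65). KCNG4 and KCNG1, silent subunits that modify Kv2 channels, were 6.59-fold (5.12 to 8.50) and 3.79-fold higher (2.48 to 5.75). Against the cold set KCNG1 was not higher, with a log2 ratio of -0.07, or 0.98 within library 1 and -1.34 within library 6. KCND3, the A-type channel Kv4.3, stood at 1257 against 394 CPM, 3.19-fold higher (3.05 to 3.33). Its auxiliary subunits went in opposite directions. DPP6 was 2.85-fold higher (2.77 to 2.93) and KCNIP1 2.57-fold higher (2.48 to 2.67), whereas DPP10 was 3.33-fold lower (3.13 to 3.55). The genes lower included KCNS1 (7.89-fold, 3.33 to 24.6, from 5 UMIs, but with thinned nuclei a log2 ratio of -1.27 in place of -2.98), the M-current subunit KCNQ5 (115 against 685 CPM, 5.95-fold, 5.31 to 6.68) and the fast channels KCNA1 and KCNC1 of large-fibre neurons (5.81 and 5.22-fold).

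Among 37 mechanical, thermal and chemical channel genes 7 were higher and 10 lower, with a median log2 ratio of -0.27. Beside LHFPL3, TMC3 and PIEZO2, the higher genes were ANO3 (4.31-fold), the acid-sensing channel ASIC2 (3.59-fold), LHFPL6 (3.16-fold) and TMEM63B (2.51-fold). The lower ones were largely TRP channels. TRPC6 was 7.26-fold lower (4.02 to 14.7), TRPC4 5.48-fold, TRPC5 3.09-fold and TRPM3 2.61-fold. By set, the log2 ratio of TRPC6 was -4.69 against the itch set, but -0.87, 0.42 and 2.37 against the cold, large-fibre and peptidergic sets. Against the cold, large-fibre and peptidergic sets TRPC6 was too rare for a value in any library. TRPM8, the cold channel, stood at 68.1 against 138 CPM, but in library 1 at 89.0 against 88.7 CPM. Neither TRPV1, the capsaicin receptor (22.2 against 26.8 CPM), nor TRPA1 (68.1 against 97.9 CPM) was called. P2RX3, the ATP-gated channel used to define nonpeptidergic nociceptors in rodents, stood at 16.7 against 8.35 CPM, a ratio of 1.996 (1.38 to 2.84) just under the threshold.

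Receptors for fast transmitters came next. Of 16 GABA-A and glycine receptor genes 4 were higher and 2 lower, with a median log2 ratio of -0.07. GABRA2 led, followed by GABRA5 at 80.4 against 22.6 CPM (3.56-fold, 2.98 to 4.24) and GABRR2 at 24.4 against 8.71 CPM (2.81-fold, 2.05 to 3.82). GABRA5 was nearly as high in the itch set, at 68.6 CPM, and against the peptidergic, itch and cold sets its log2 ratio of 1.83 became 0.97, under the threshold. GABRD, the delta subunit, had 0 UMIs, which gave 3.56-fold lower when the 0 is set to 3 counts over the nuclei. That value depends on the setting and is no lower bound. With the same setting the log2 ratio of GABRD was -3.00 against the large-fibre set. Against the cold, peptidergic and itch sets it was -1.42, 0.50 and 0.54, and too rare for a value in any library. Of 14 ionotropic glutamate receptor genes only the kainate receptor subunit GRIK1 was higher (266 against 109 CPM, 2.44-fold, 2.22 to 2.66) and only GRIN3A lower (6 UMIs, 2.88-fold, 1.27 to 8.07), 1 of 14 each way beside the 3.13 and 6.95% over all genes. GRIN3A gave a log2 ratio of -1.53 over all nuclei, -3.58 without library 5 and -0.88 with the mean CPM over nuclei, and GRIK1 0.97 with thinned nuclei.

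Receptors coupled to G proteins included contrasts between close relatives. OPRD1, the delta opioid receptor, stood at 41.9, 51.0, 77.1 and 124 CPM in the 4 libraries against 8.69, 12.3, 34.2 and 24.8 CPM, 3.81-fold higher (3.15 to 4.61). OPRM1, the mu opioid receptor, stood at 126, 20.9, 85.6 and 43.1 CPM against 446, 125, 299.7 and 311 CPM, 5.05-fold lower (4.31 to 5.95). The GFRA2 LPAR3 nuclei therefore held more OPRD1 and less OPRM1 than the other nuclei in each library. Against single sets, OPRD1 was 1.46-fold above the cold set (1.01 to 2.19), with 1.70, 4.61, 1.10 and 2.32-fold within the 4 libraries, and OPRM1 stood close to the large-fibre set (58.9 against 71.0 CPM). OPRK1, the kappa receptor, was 4.42-fold lower (2.43 to 8.96). In the whole list of 16 inhibitory receptors 1 was higher and 5 lower, with a median log2 ratio of -0.24, and NPY2R was lower with 3 UMIs (7.19-fold, 2.40 to 35.4), its log2 ratio of -2.85 becoming -1.73 with the mean CPM over nuclei.

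Of 11 testable receptors for lysolipids, purines and proteases, 2 were higher and 2 lower, with a median log2 ratio of -0.50. That median had the opposite sign without nuclei that met another rule, 1.34 over the 5 genes still testable. ADORA1, the inhibitory adenosine A1 receptor, was 3.95-fold higher (3.39 to 4.60) and P2RY14, a receptor for UDP-sugars, 3.77-fold (2.87 to 4.94). Lower were S1PR3 (3.73-fold, 5 UMIs) and ADORA2B (2.87-fold, 12 UMIs), but as means of within-library values both fell short of 2-fold, with log2 ratios of -0.91 and -0.75. LPAR5, a further lysophosphatidic acid receptor listed among MRGPRD markers, had 2 UMIs and was too rare to compare.

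Growth factor and cytokine receptors included the partner of GFRA2. RET, the signalling kinase of the GDNF family, stood at 1338, 912, 611 and 619 CPM against 667, 339, 318 and 257 CPM, 2.19-fold higher (2.09 to 2.30). The itch set came close to it with 829 CPM, and against the peptidergic, itch and cold sets RET fell short of 2-fold (log2 ratio 0.48 in place of 1.13). MET, the hepatocyte growth factor receptor, was 4.48-fold higher (3.32 to 6.03) and IL6ST, the shared gp130 subunit of cytokine receptors, 2.30-fold (2.11 to 2.51), or 0.96 on the log2 scale with thinned nuclei. IL31RA was at 41.5 against 317 CPM, 7.64-fold lower (6.34 to 9.31), with a log2 ratio of -2.14 with thinned nuclei in place of -2.93. It is a gene of the itch set's own rule, and that set is part of the other nuclei. By set, its log2 ratio was -4.95 against the itch set and -1.01 against the peptidergic set. Against the cold and large-fibre sets IL31RA was higher, at 1.48 and 1.497, though at -2.43 against the large-fibre set within library 3. OSMR was not called, at 129 against 115 CPM. Of the 32 genes of this list 3 were higher and 7 lower, with a median log2 ratio of -0.12.

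Peptide genes were lower as far as they were called. The median log2 ratio of 16 genes for neuropeptides and their processing was -1.38. None was higher (0) and 9 were lower, beside 3.13 and 6.95% over all genes. Beside TAC1, GAL and SST these were NMB (6.79-fold), ADCYAP1 (5.72-fold), SCG2 (5.14-fold), CARTPT (4.66-fold, from 8 UMIs and with the opposite sign in library 6), NPPB (3.06-fold) and CHGA (2.19-fold). In library 1 the GFRA2 LPAR3 nuclei still held 254 CPM of NPPB and 162 CPM of NMB, in a library where the other nuclei held 674 and 666 CPM. How far free RNA set these levels was not tested.

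Of 31 genes for transmitter loading and release 3 were higher and 6 lower, with a median log2 ratio of -0.18. SYT7, a calcium sensor of slow release, stood at 729 against 243 CPM, 3.00-fold higher (2.84 to 3.18). SYN3, a synapsin, was 5.40-fold lower (4.78 to 6.11) and below each set. SLC17A7, the vesicular glutamate transporter VGLUT1, was 3.97-fold lower (2.23 to 7.78). Its log2 ratio was -1.99 over all nuclei, -2.69 without library 1 and -1.25 with thinned nuclei. By set, the log2 ratio of SLC17A7 was -3.34 against the large-fibre set and -0.74 against the cold set. Against the peptidergic and itch sets it had the opposite sign, at 1.496 and 1.54. Against the cold, peptidergic and itch sets SLC17A7 was too rare for a value in any library. SLC17A6, which encodes VGLUT2, was not called, at 149.99 against 128 CPM.

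Transcription factors of sensory neurons split in both directions, with 8 of 43 higher, 11 lower and a median log2 ratio of 0.16. POU4F2, of the BRN3 family, was rare but stood at 65.5, 18.6, 24.3 and 44.4 CPM against 6.51, 4.81, 5.90 and 2.92 CPM, 8.34-fold higher (6.19 to 11.3). It was above each of the 4 sets. ZFHX3 was 4.36-fold higher (4.05 to 4.69), POU4F1 4.26-fold (2.37 to 7.57), CASZ1 4.22-fold and ZNF521, known from mouse C-fibre touch neurons, 3.73-fold (3.47 to 4.00). RUNX1 stood at 576, 629, 353 and 574 CPM against 189, 181, 133 and 166 CPM, 3.06-fold higher (2.87 to 3.27). BCL11B was 6.26-fold lower (2.63 to 19.5) from 5 UMIs, and the log2 ratio of BCL11B, -2.65, was -3.48 without library 5 and -1.71 without library 6.

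Of 58 adhesion and guidance genes 25 were lower and 9 higher, with a median log2 ratio of -0.62, where over all genes 6.95% were lower and 3.13% higher. Against the peptidergic, itch and cold sets alone that median was 0.01. SEMA3A, a secreted repellent, stood at 120.4, 153, 92.8 and 140 CPM against 11.2, 19.9, 35.99 and 21.2 CPM, 5.47-fold higher (4.64 to 6.46). CNTNAP5 was 3.46-fold higher (3.27 to 3.66), but its log2 ratio to the cold set was only 0.35. Within the 4 libraries that value was -0.09, 1.11, 0.35 and 0.45. PLXNA2 was 3.41-fold higher (3.12 to 3.72) while its relative PLXNA4 was 3.57-fold lower (3.28 to 3.88). CDH20 and CDH12 were 5.04 and 5.00-fold lower. Against those 3 sets the log2 ratio of CDH20 fell short of 2-fold (-0.91 in place of -2.33). CDH12 stood at 204 CPM in the large-fibre set, and its log2 ratio of -2.32 became 0.16 against the same 3 sets and -3.07 without library 5. UNC5D, a netrin receptor, was called higher over all nuclei (308.5 against 106 CPM) although it was lower in each of the 4 libraries. The 5 nuclei of library 4 held it at 6196 CPM.

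**Figure D5:**
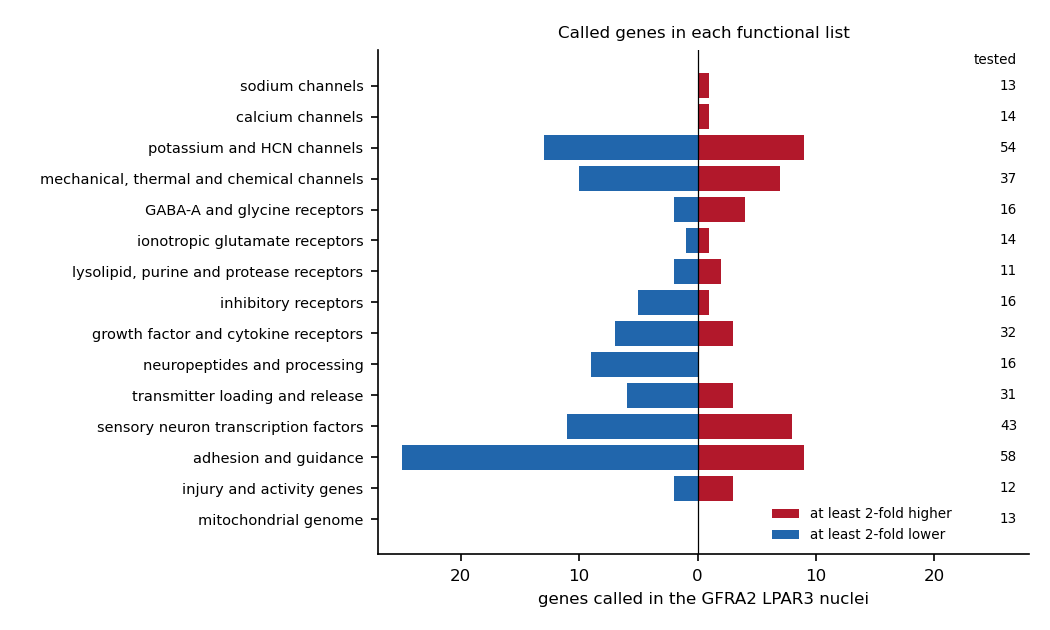
Genes called at least 2-fold higher (right, red) and lower (left, blue) in each functional list, with the number tested at the right edge. Neuropeptides show 9 lower and 0 higher genes, adhesion and guidance 25 lower and 9 higher, and no gene of the mitochondrial genome was called.

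Injury and activity genes were looked at because nuclei isolation can induce them. ATF3 (4.04-fold, 2.66 to 6.11), SOX11 (2.49-fold) and JUN (2.46-fold, 2.13 to 2.83) were higher and FOS and GAP43 lower among 12 tested genes, with a median log2 ratio of -0.38. ATF3 stood at 57.6 CPM in the GFRA2 LPAR3 nuclei of library 1 and at 3.92 to 13.9 CPM in the other 3 libraries, with the opposite sign in library 6. Its log2 ratio of 2.02 was 1.40 without library 1. JUN, at 0 in library 3, stood at 340, 67.1 and 62.7 CPM in libraries 1, 5 and 6 against 100.3, 49.6 and 42.3 CPM, and its log2 ratio of 1.30 was 1.16 without library 3 and 0.93, under the threshold, as the mean of within-library values. FOS, from 4 UMIs, gave -2.10 over all nuclei and -3.38 without library 1. The part of isolation in these values was not tested.

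Markers of other cells were present on both sides. Of 8 satellite glia genes 1 was lower (FABP7, 5 UMIs) and none higher (0), and their sum ranged from 254 to 2157 CPM over the 4 libraries in the GFRA2 LPAR3 nuclei and from 290 to 2313 CPM in the others. No gene was called among 6 for Schwann cells (sums of 1427 to 1765 and 1044 to 1768 CPM), 6 for fibroblasts, 5 for endothelial cells and 4 for mural cells. Of the macrophage list 1 of 4 was lower, and the T cell genes CD2 and CD3D were at 0 in the GFRA2 LPAR3 nuclei. Of 12 large-fibre genes 9 were lower and HEG1 higher, and of 10 genes of the SST OSMR list 6 were lower and none higher (0). Since 42.2% of the nuclei also met another set's rule, the values above were recomputed without such nuclei on either side. This gave 499 genes higher, 267 of them among the 413, and 826 lower, 414 of them among the 918. The rule genes of the sets are forced down by that step. TMEM45B then had a log2 ratio of 4.00 in place of 2.98, GABRA5 3.16 in place of 1.83, PIEZO2 2.81 in place of 2.19 and PVALB -1.75 in place of -3.07.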

How the data were processed

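Single-nucleus RNA of dorsal root ganglia was counted per gene and nucleus. The authors deposited 1 table of raw UMI counts, not normalized, of 30477 genes by 2189 nuclei and 17277376 UMIs. Per the submitters' processing notes, which give no roles, Cell Ranger 6.0.1, Seurat and the Sscrofa11.1 build were used. The filter on nuclei was not found in the labels. Of 14012 rows with an Ensembl identifier, 773 received a symbol from the reference tables, and 69 of 70 named genes a place in RefSeq.

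From the counts, UMIs were summed over each side and ratios of CPM given with the exact conditional binomial 95% interval of 2 Poisson rates, in Python 3.11.15 with numpy 2.4.6 and scipy 1.17.1. A 0 was set to 3 counts over a side. Within-library ratios needed 10 nuclei a side and 10 UMIs, with 0.5 counts added. The code was tested on simulated data. With 1 pooled sample no test, p-value or replicate spread exists.

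Named genes are the 8 markers, the 15 highest and 10 lowest called genes with a symbol, at least 200 UMIs and the same direction in every library with a value (at least 2), and up to 3 higher and 2 lower called genes per functional list; 1 of them is not reported here. Genes outside that rule (such as NEFH, SCN10A, OSMR, DPP6, DPP10, PLXNA4, UNC5D, TRPM8 and other list members) were chosen after their values were seen. Members, lists and rules were chosen with earlier results of these data known. Alternatives varied the rule, depth, weighting, comparison nuclei, minimum count and libraries. Leaving out the genes at 0 in library 3 was added after seeing the data. No paired analysis was possible because no column is tied to a pig.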

Additional observations from a re-analysis of the deposited data

How the results depend on the processing

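The share of nuclei meeting the rule, 8.77%, was 5.66% with at least 5 UMIs and 5 per 10000, 11.5% among nuclei of at least 2000 UMIs, 10.0% without nuclei that met another rule, and 10.4, 10.5 and 6.51% without libraries 1, 3 and 5. The count of higher genes, 413, was 677 with the mean CPM over nuclei and 240 with at least 200 UMIs. The count of lower genes, 918, was 500 with nuclei thinned to 2000 UMIs, 505 against the peptidergic, itch and cold sets, and 508 with at least 200 UMIs. The fewer genes reaching the minimum lower the counts at 200 UMIs, and for the other settings the cause was not tested. Without the genes at 0 in library 3 the counts were 380 higher and 806 lower. Of the 413 and 918 genes, 359 and 806 were among these.

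Of 70 named genes, 68 kept their sign in every alternative that gave a value. The exceptions were PVALB (0.65) and CDH12 (0.16), both against the peptidergic, itch and cold sets. Leaving aside the changes of the minimum count, which cannot alter a ratio, 954 of 1195 alternative values lay within the counting interval of the value reported. The ratio moved over 1.5 times in 98 of them, 44 towards or past no difference and 54 away from it, over 49 genes. In some alternative 13 genes were under 2-fold or reversed: beside those named in the report they were GLRA3 (-0.51 with the mean CPM over nuclei) and DDC (0.99 without library 5). Of 15 list medians 12 changed sign in some alternative. The median log2 ratio of the mitochondrial genome was -0.46 over all nuclei and 0.46 without library 3. No paired analysis was possible because the columns carry no replicate number. Genes with a few UMIs on a side, such as SST, CBLN2 and NPY2R, have intervals that span several-fold, and genes under 50 UMIs were not compared at this depth.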

Other observations

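RBFOX3, the gene of the NeuN protein whose antibody served for enrichment, stood at 55.0, 237, 397 and 505 CPM in the GFRA2 LPAR3 nuclei of libraries 1, 3, 5 and 6 against 19.2, 55.4, 111 and 92.9 CPM in the other nuclei, 4.42-fold higher (4.03 to 4.84). The lowest level among the 4 comparison sets was 26.0 CPM in the peptidergic set and the highest 118 CPM in the large-fibre set. The gene was singled out after its values were seen, and its bearing on the share of these nuclei was not tested.

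Of the 365 genes higher in every library, 86 carried no symbol, and 21 of those were at least 2-fold above each set. The row ENSSSCG00000038215 stood at 41.9, 99.8, 167 and 268 CPM in libraries 1, 3, 5 and 6 against 1.81, 4.21, 27.7 and 8.51 CPM in the others, with an interval of the ratio from 16.1 to 24.98. It was detected in 47.4% of the GFRA2 LPAR3 nuclei and 4.68% of the others, before any thinning and at median depths of 9004 and 5696 UMIs. The tables used here pair it with no name.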
